A study of Mus musculus with 24 samples.

Results

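The 9 genes Trem2, Tyrobp, Csf1r, Cx3cr1, P2ry12, P2ry13, Gpr34, Siglech and Tmem119 encode membrane proteins typical of homeostatic microglia, and they were taken by name from a table of 15232 genes measured in mouse anterior cingulate cortex. All 9 passed the filter on low values (a mean of at least 1 FPKM, a read count divided by gene length and library size), which left 12572 genes for testing. Microglia are the resident macrophages of the brain, and they depend on signals through CSF1R for survival. TREM2, a receptor for lipids and lipoproteins, signals through the adaptor TYROBP (also called DAP12), which recruits the kinase SYK. P2RY12 and P2RY13 sense ADP, CX3CR1 binds the neuronal chemokine CX3CL1, and GPR34 binds lysophosphatidylserine. SIGLEC-H is a member of the Siglec family that also pairs with TYROBP, and TMEM119 is a membrane protein used as a microglial marker.

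The study asked how thrombospondins 1 and 2, secreted by astrocytes, bear on effort in a goal-directed task. Whole-tissue RNA from 24 mice, 1 library per animal, fell into 3 arms of 8, each with 4 females and 4 males: wild type with no treatment, Thbs1/2 KO with no treatment, and Thbs1/2 KO trained in a Skinner box. The trained animals were food deprived for training, so that food deprivation and training cannot be told apart, and a trained wild-type arm was not analysed here. Strain, age and the design of the Thbs1 and Thbs2 alleles are not given in the sources used here.

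Both targeted genes were higher, not lower, in the libraries labelled KO. Thbs1 lay between 0.254 and 0.716 FPKM in the libraries labelled WT. It lay between 2.77 and 5.04 FPKM in the untrained libraries labelled KO and between 3.62 and 5.91 FPKM in the trained ones. For Thbs2 the ranges were 1.52 to 2.31, 2.82 to 3.95 and 2.95 to 3.63 FPKM. Since the design of the alleles is not given, these levels do not show whether the labels are right or wrong. The arms are therefore called by their labels throughout, and every direction drawn between genotypes rests on those labels. Recovered depth was 12823133 to 19806788 reads per library labelled WT, 12263690 to 27095685 reads per untrained library labelled KO and 16651737 to 20229582 reads per trained library. All 8 trained animals had animal numbers over 1000, against 2 untrained animals labelled KO and 1 labelled WT, these 3 all males. Male replicate 3 of the untrained libraries labelled KO stood apart: the mean log2(FPKM + 1) of 9 tested striatal and septal marker genes was 5.23, against 2.28 to 3.82 in the other 7 libraries of its arm, and that of 10 cortical markers was 3.43, against 4.98 to 5.11. Without it Trem2 still fell with the genotype label (change -0.44, limma adjusted p = 0.00364), Gpr34 still fell with training (change -0.27, limma adjusted p = 0.0352), and the 179 genes called for the genotype label became 340.

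The mean level of these genes, per length of gene, ran from 3.43 to 29.8 FPKM. Csf1r was highest at 29.8 ± 2.08 FPKM (SD, n = 24), followed by Tyrobp at 18.5 ± 2.15 FPKM (SD, n = 24), and Csf1r exceeded Tyrobp in 24 of 24 libraries. P2ry12 (13.8 ± 2.15 FPKM, SD, n = 24) and Cx3cr1 (13.2 ± 1.63 FPKM, SD, n = 24) could not be ordered, since P2ry12 was the higher in only 13 of 24 libraries. Tmem119 followed at 10.3 ± 1.06 FPKM (SD, n = 24) and was above Trem2 in 24 of 24 libraries.
Trem2 (6.49 ± 1.54 FPKM, SD, n = 24) and Siglech (5.99 ± 0.90 FPKM, SD, n = 24) were close, with Trem2 the higher in 15 of 24 libraries. Gpr34 (4.75 ± 1.07 FPKM, SD, n = 24) and P2ry13 (3.43 ± 0.692 FPKM, SD, n = 24) were lowest, and Gpr34 was above P2ry13 in 23 of 24 libraries. The order of the means was the same in all 3 arms except for Trem2 and Siglech: in the libraries labelled WT Trem2 was above Siglech in 8 of 8, whereas in the untrained libraries labelled KO Siglech was above Trem2 in 5 of 8. Trem2 rested on 81 to 233 recovered reads per library, Gpr34 on 96 to 243 and P2ry13 on 98 to 240, which limits the precision of all 3.

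**Figure D1:**
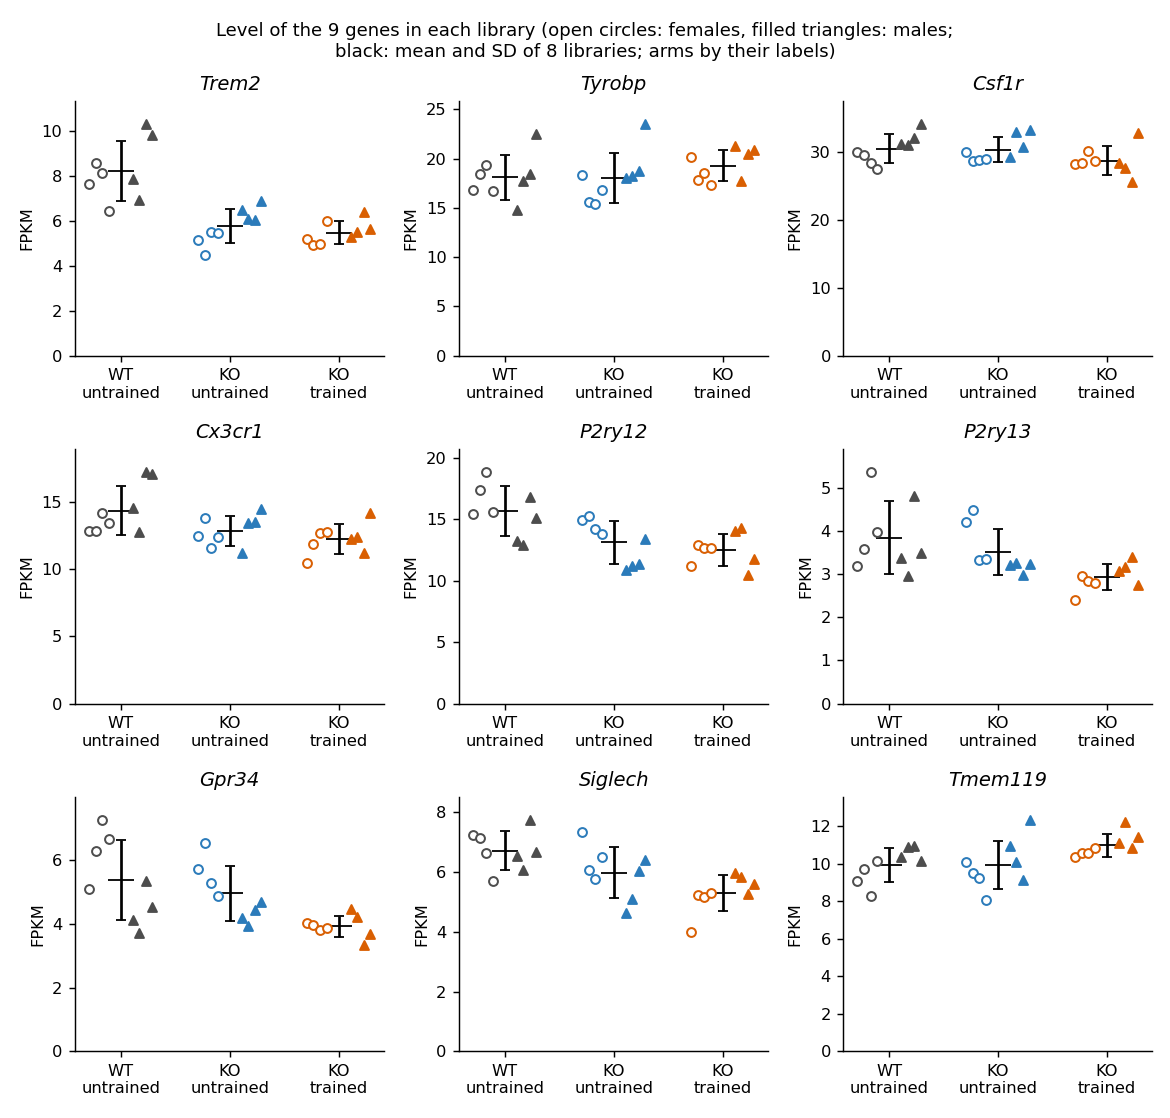
FPKM (vertical axes, from 0) of each of the 9 genes in every library, by arm; open circles are females, filled triangles males, and black bars the mean and SD of 8 libraries. The WT-labelled points of Trem2 start at 6.46 FPKM and its KO-labelled points end at 6.90 FPKM, whereas the 3 arms of Tyrobp and Csf1r overlap widely.

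Thbs1 is on chromosome 2 and Thbs2 on chromosome 17, and the 9 genes were sorted by whether they share a chromosome with either. Trem2 is the only one of the 9 on either chromosome, at chr17:48346401-48354147 (GENCODE M21, GRCm38), 33.7 Mb beyond the end of Thbs2. P2ry12 (chr3:59216272-59262871) and P2ry13 (chr3:59207892-59210882) are neighbours on chromosome 3, inside the span of Med12l, which runs on the opposite strand.

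RefSeq (GRCm38.p6) held promoter windows, from 250 bases before to 50 bases after the annotated start, for 5 of the 9 genes. Those of Trem2 on chromosome 17 and of P2ry12 and P2ry13 on chromosome 3 are shown because they are the linked gene and the adjacent pair on which the comparison turns. Capitals mark the letters GAGGAA, the core bound by the macrophage factor PU.1, searched on both strands, or TTCCTC where the match is on the other strand.
Trem2, chr17:48346151-48346450, plus strand: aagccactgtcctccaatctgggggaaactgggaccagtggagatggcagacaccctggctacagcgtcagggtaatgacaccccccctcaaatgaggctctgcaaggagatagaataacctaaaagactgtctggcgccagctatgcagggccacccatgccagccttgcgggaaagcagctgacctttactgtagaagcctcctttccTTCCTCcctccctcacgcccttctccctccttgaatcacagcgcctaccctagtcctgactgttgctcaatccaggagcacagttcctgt
P2ry12, chr3:59262936-59263235, minus strand: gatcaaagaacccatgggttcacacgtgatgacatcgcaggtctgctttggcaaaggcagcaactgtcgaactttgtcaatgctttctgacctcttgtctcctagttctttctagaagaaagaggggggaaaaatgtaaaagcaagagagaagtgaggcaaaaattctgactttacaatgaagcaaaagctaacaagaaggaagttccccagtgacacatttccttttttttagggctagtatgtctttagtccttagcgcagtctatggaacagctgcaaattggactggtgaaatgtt
P2ry13, chr3:59210833-59211132, minus strand: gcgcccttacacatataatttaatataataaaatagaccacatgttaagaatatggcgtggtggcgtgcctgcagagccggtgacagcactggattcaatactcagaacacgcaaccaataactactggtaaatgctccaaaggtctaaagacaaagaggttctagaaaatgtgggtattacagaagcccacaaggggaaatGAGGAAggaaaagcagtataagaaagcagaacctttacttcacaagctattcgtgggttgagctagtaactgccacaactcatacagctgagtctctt
The letters occurred 40 bases before the start of Trem2, 48 before that of P2ry13 and 4 before that of Siglech, and not in the windows of P2ry12 and Cx3cr1. Of all 32851 RefSeq promoter windows, 28.3% held them. A match of these letters is a description of the window and not a measured binding site.

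Of the other genes, Tyrobp and Siglech are on chromosome 7, Cx3cr1 on chromosome 9, Tmem119 on chromosome 5, Csf1r on chromosome 18 and Gpr34 on chromosome X. Gpr34 lies within Cask on the opposite strand, and Csf1r overlaps Hmgxb3 on the opposite strand. Cx3cr1 overlaps genes on both strands, with Gorasp1 and Csrnp1 on its own strand. The libraries were made with a stranded kit, but the strand setting of the counting is not given in the sources used here. Reads of these overlapping genes may therefore be shared, and for those on the same strand the setting would not separate them.

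Between untrained libraries, by genotype label, Trem2 was the only one of the 9 genes called (limma, Benjamini-Hochberg adjusted p under 0.05 over all 12572 tested genes, sex as a covariate). In this comparison 0.819% of tested genes were called lower and 0.605% higher, 179 genes in all. Trem2 ranged from 6.46 to 10.3 FPKM with a median of 7.99 in the libraries labelled WT, and from 4.50 to 6.90 FPKM with a median of 5.77 in the untrained libraries labelled KO. Of the latter, 6 of 8 lay below every library labelled WT. The overlap came from comparing across sexes: among females the arms spanned 6.46 to 8.56 and 4.50 to 5.50 FPKM, among males 6.92 to 10.3 and 6.03 to 6.90 FPKM, and neither pair overlapped. Trem2 fell by 0.44 on the log2(FPKM + 1) scale (SE 0.0744, limma adjusted p = 0.00351), and its mean FPKM dropped by 29.9%. Among animals with numbers under 1000 it fell by 0.46 (limma adjusted p = 0.0234). In females alone, where 79 genes were called, it fell by 0.50 (limma adjusted p = 0.0374), and in males alone, where 17 genes were called, the difference of -0.39 did not pass (limma adjusted p = 0.683). In bulk tissue, fewer cells of a type and less RNA per cell cannot be told apart.

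P2ry12, on chromosome 3, was the next in size and did not pass. It ranged from 12.9 to 18.9 FPKM with a median of 15.5 in the libraries labelled WT and from 10.9 to 15.2 FPKM with a median of 13.6 in the untrained libraries labelled KO. The arms overlapped, with 3 of 8 libraries labelled KO below all those labelled WT. The difference was -0.24 (SE 0.0595, limma adjusted p = 0.0615), and it ranked 91st by p among the 10972 tested genes outside chromosomes 2 and 17. Leaving out male KO_untrained replicate 4 brought it past the threshold (limma adjusted p = 0.0454), as did array weights (limma adjusted p = 0.0388). Med12l, which overlaps it, differed by -0.04 (limma adjusted p = 0.79).

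The other 7 genes gave smaller differences, none of which passed. Siglech differed by -0.15 (limma adjusted p = 0.407), Cx3cr1 by -0.14 (limma adjusted p = 0.346), P2ry13 by -0.09 and Gpr34 by -0.09. Csf1r differed by -0.0070 with a 95% interval of -0.08 to 0.07, and Tyrobp and Tmem119 had intervals of -0.17 to 0.16 and -0.13 to 0.12. The 95% interval of Trem2, -0.60 to -0.28, overlapped those of P2ry12 (-0.36 to -0.11), Siglech (-0.30 to 0.0029) and P2ry13 (-0.29 to 0.10). Intervals set side by side are no test of a difference between genes, for which the ratios below were used. All 9 differences were negative, with a median of -0.09 against -0.0014 over all tested genes. Those of Tyrobp (-0.0034), Tmem119 (-0.0047) and Csf1r (-0.0070) were smaller than their SE. With median-ratio scaling, array weights, limma-voom or only animals with numbers under 1000, 8 differences were negative and 1 positive. Without male KO_untrained replicate 3, Tmem119 differed by 0.02.

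**Figure D2:**
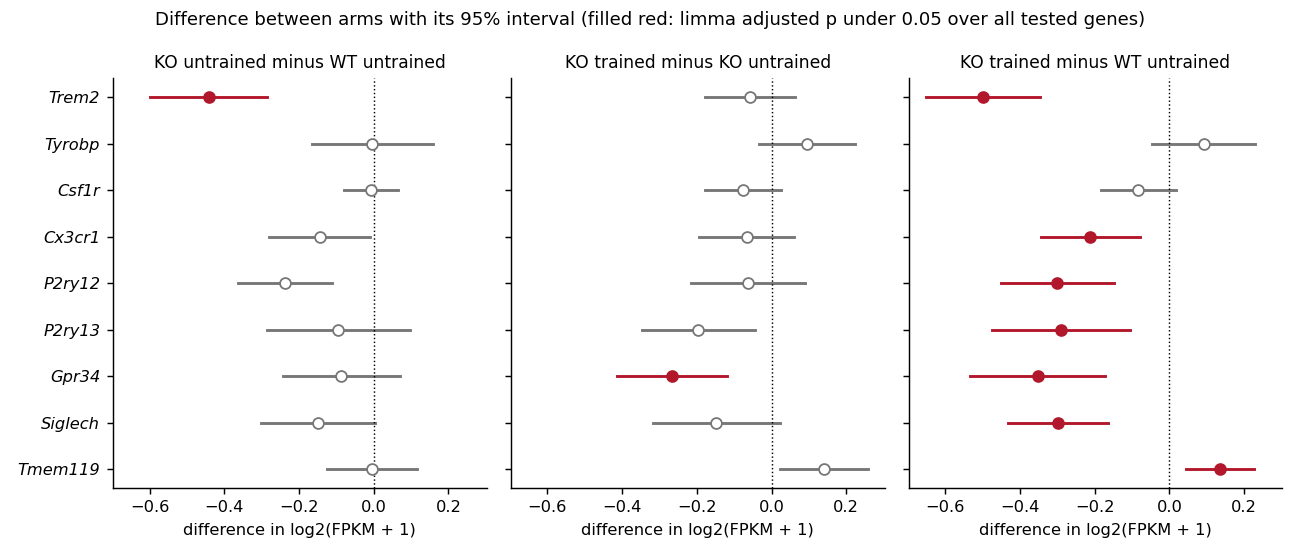
Difference in log2(FPKM + 1) (horizontal axes) of the 9 genes in each comparison of arms, with its 95% interval; filled red points have a limma adjusted p under 0.05 over all tested genes. Trem2 is the only filled point in the left panel (-0.44), Gpr34 the only one in the middle panel (-0.27), and 7 genes are filled in the right panel.

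To compare the linked gene with the unlinked ones inside the same libraries, the log2 ratio of Trem2 to each other gene was tested between the untrained arms with an exact permutation test over all 12870 arrangements of the labels (2-sided, smallest possible p = 0.0001554, adjusted over the 8 ratios). All 8 ratios were lower in the untrained libraries labelled KO, and 5 of 8 passed at an adjusted p under 0.05. All 8 ratios share Trem2, so they are not separate results. Tyrobp, Csf1r and Tmem119 themselves differed by -0.0034, -0.0070 and -0.0047, so the ratios to them mostly restate the fall of Trem2. Over all tested genes the median difference was -0.0014, and ratios of Trem2 to genes outside the 9 were not tested. The log2 ratio of Trem2 to its adaptor Tyrobp was -1.15 ± 0.19 in the libraries labelled WT and -1.65 ± 0.14 in the untrained libraries labelled KO (SD, n = 8 each), where 8 of 8 libraries were below all those labelled WT (exact permutation, adjusted p = 0.000622). The ratio to Csf1r behaved alike, at -1.90 ± 0.18 and -2.40 ± 0.15 (SD, n = 8 each; exact permutation, adjusted p = 0.000622), again without overlap.
The ratios to Tmem119, Cx3cr1 and Siglech were lower by 0.50, 0.35 and 0.33 in the libraries labelled KO (exact permutation, adjusted p = 0.0029, 0.00404 and 0.0390). Those to Gpr34, P2ry13 and P2ry12 differed by -0.41, -0.39 and -0.25 and did not pass (exact permutation, adjusted p = 0.0838, 0.0539 and 0.122). The count rose to 8 of 8 when labels were exchanged only within each sex, and ranged from 4 to 7 with 1 library left out. Against the mean of the other 8 genes, Trem2 lay at -0.37 ± 0.15, -0.72 ± 0.21 and -0.71 ± 0.13 (log2 scale, SD, n = 8 each) in the libraries labelled WT, untrained KO and trained KO. With that mean as a covariate, Trem2 still fell, by 0.36 (SE 0.0763, limma adjusted p = 0.0377).

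**Figure D3:**
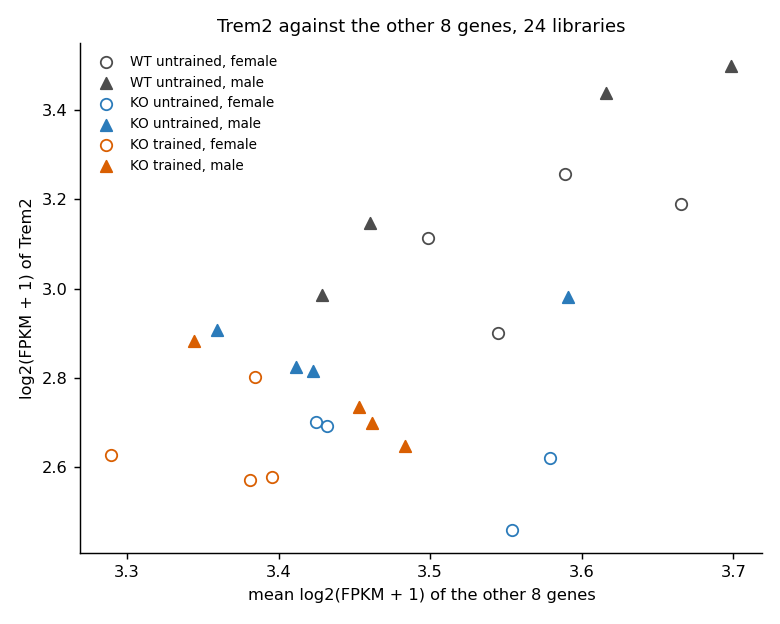
Log2(FPKM + 1) of Trem2 (vertical axis) against the mean log2(FPKM + 1) of the other 8 genes (horizontal axis) in 24 libraries, coloured by arm, with open circles for females and triangles for males. Libraries labelled WT fill the upper part of the plot: Trem2 minus that mean averaged -0.37 in the WT arm and -0.72 and -0.71 in the KO arms.

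None of the tested genes nearest to Trem2 was called lower with the genotype label. Of the 20 examined, 10 on each side, 1 was called, and it rose: Ccnd3, which encodes the cell cycle protein cyclin D3, went from 8.07 ± 1.08 to 10.1 ± 0.803 FPKM (SD, n = 8 each; change 0.29, limma adjusted p = 0.00754). The median difference of the 20 was -0.0028, and the lowest, that of Nfya, was -0.15. Of 11 other genes in and beside the Trem receptor cluster, 4 were in the table. Nfya and Oard1 (-0.14), which are not Trem receptor genes and are among these 20 neighbours, were tested and not called here. The remaining 2 were under 1 FPKM, so no other Trem receptor gene was tested. With training Nfya, a transcription factor subunit gene, rose (change 0.37, limma adjusted p = 0.00922).
Chromosome 17 as a whole held 52 calls among 600 tested genes. They were unevenly placed: 45 of 387 genes between Thbs2 and Trem2 were called, 2 of 48 before Thbs2 and 3 of 163 after Trem2. On chromosomes 2 and 17 together 96 of 1600 tested genes were called, against 83 of 10972 on the others. Around the unlinked genes, 0 or 1 of 20 neighbours was called in each case. Whether the place of Trem2 on chromosome 17 has a part in its difference was not tested.

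**Figure D4:**
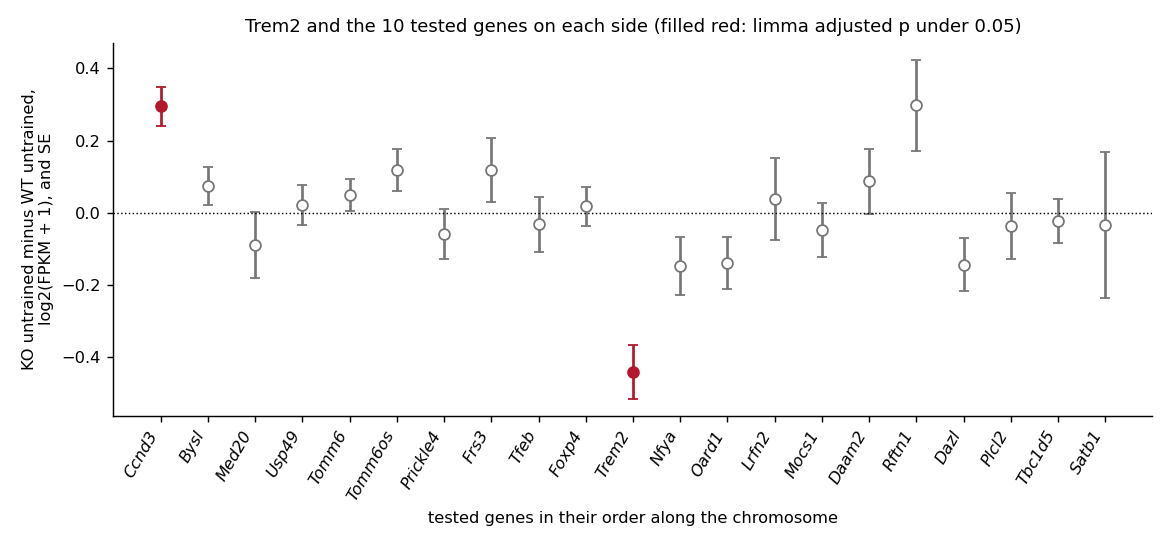
Difference between untrained libraries labelled KO and WT in log2(FPKM + 1), with its SE (vertical axis), for Trem2 and the 10 tested genes on each side, in their order along chromosome 17. Trem2 is the lowest point at -0.44, and Ccnd3 at 0.29 is the only other gene called.

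Between trained and untrained libraries labelled KO, Gpr34 was the only one of the 9 genes called, and it fell. In this comparison 2.17% of tested genes were called lower and 3.50% higher (440 higher and 273 lower; 235 and 385 when every library is scaled to an equal sum). Gpr34, the lysophosphatidylserine receptor, ranged from 3.94 to 6.54 FPKM with a median of 4.78 in the untrained arm and from 3.33 to 4.46 FPKM with a median of 3.91 in the trained arm. Of the trained libraries, 4 of 8 lay below all the untrained ones, and the ranges overlapped. The change was -0.27 (SE 0.0702, limma adjusted p = 0.0355).
This call was lost when any 1 of 9 libraries was left out, namely KO_untrained female replicates 1, 2 and 3 and male replicate 4, and KO_trained female replicates 1, 2, 3 and 4 and male replicate 3 (change -0.27 to -0.22, limma adjusted p = 0.0506 to 0.0801). It was also lost with quantile normalization (change -0.24, limma adjusted p = 0.0595) and with no sex covariate (change -0.27, limma adjusted p = 0.0657). With an animal number over 1000 as a covariate Gpr34 differed by -0.09 (SE 0.108, limma adjusted p = 0.804). The interval of -0.32 to 0.14 still included -0.27. In that fit no gene of the table was called, against 1306 at an unadjusted p under 0.05. All 8 trained animals but only 2 untrained ones labelled KO, both males, had such numbers. The fit thus set training against those 2 libraries, so few that training and animal number can hardly be told apart. Cask, which overlaps Gpr34, differed by -0.13 (limma adjusted p = 0.073).

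The other 8 genes did not pass with training. P2ry13 differed by -0.20 (SE 0.0717, limma adjusted p = 0.111; -0.27 and 0.0178 with array weights), Siglech by -0.15 (limma adjusted p = 0.28) and Tmem119 by 0.14 (SE 0.0557, limma adjusted p = 0.136). Trem2, which had fallen with the genotype label, differed by -0.06 with an interval of -0.18 to 0.06. None of the 8 ratios of Trem2 to another gene passed (exact permutation, lowest adjusted p = 0.113) with all libraries; the lowest unadjusted p were 0.0141 for Tmem119 and 0.0460 for Tyrobp. With KO_trained female replicate 4 left out 2 of 8 passed, and 1 of 8 passed without KO_untrained female replicate 2 or KO_trained male replicate 3. The direction was split, with 7 negative and 2 positive differences and a median of -0.07 against 0.0065 over all tested genes.

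For Gpr34, Siglech and the ADP receptors the trained and untrained arms lay farther apart in females than in males, but the test of that difference between the sexes did not pass over all genes. Gpr34 in females went from 5.60 ± 0.711 to 3.91 ± 0.0922 FPKM (SD, n = 4 each), without overlap, and in males from 4.31 ± 0.320 to 3.93 ± 0.510 FPKM (SD, n = 4 each), with overlap. P2ry12 in females went from 14.6 ± 0.657 to 12.4 ± 0.794 FPKM, and in males from 11.7 ± 1.12 to 12.7 ± 1.83 FPKM (SD, n = 4 each). Siglech and P2ry13 had the same form, from 6.42 ± 0.683 to 4.91 ± 0.614 FPKM and from 3.85 ± 0.592 to 2.75 ± 0.236 FPKM in females, against 5.54 ± 0.817 to 5.66 ± 0.318 FPKM and 3.17 ± 0.127 to 3.10 ± 0.268 FPKM in males (SD, n = 4 each).
In a fit of females alone these 4 genes fell (by 0.42 for Gpr34, 0.36 for P2ry13, 0.33 for Siglech and 0.22 for P2ry12, limma adjusted p = 0.0091, 0.0281, 0.0371 and 0.0306), with 1974 genes called. In males alone 0 of the 9 genes and 0 of the 12572 tested genes were called (1363 at an unadjusted p under 0.05 in limma). The differences between the sexes (males minus females) were 0.31 for Gpr34, 0.34 for P2ry13, 0.36 for Siglech and 0.32 for P2ry12, with limma adjusted p = 0.242, 0.20, 0.232 and 0.241 and unadjusted p from 0.0127 to 0.0213. In the training by sex test 0.00795% of tested genes (1 gene) were called, in that of genotype label by sex 0% (0 genes, 394 at an unadjusted p under 0.05 in limma), and 0 of the 9 genes in either. All trained females and no untrained females had numbers over 1000, so that in females training and animal number cannot be told apart. Gpr34, P2ry12, P2ry13 and Siglech also have the lowest content of G and C bases of the 9 genes, from 36.8% to 48.8%. The single-sex fits and the test between the sexes were not repeated after a correction for base composition, so its part was not tested.

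Trained libraries labelled KO were also compared with untrained libraries labelled WT, which differ in both labels. This comparison shares an arm with each of those above and is no separate evidence for either. In it 11.5% of tested genes were called lower and 12.9% higher (1448 and 1626; 2112 and 1095 at an equal sum per library). Of the 9 genes 6 fell and 1 rose. Trem2 ranged from 4.93 to 6.37 FPKM in the trained arm, below all 8 libraries labelled WT, and fell by 0.50 (SE 0.0733, limma adjusted p = 0.000168).
Gpr34 fell by 0.35, P2ry12 by 0.30, Siglech by 0.30, P2ry13 by 0.29 and Cx3cr1 by 0.21 (limma adjusted p = 0.0072, 0.00669, 0.00323, 0.0226 and 0.0213). For P2ry12 and Siglech 6 of 8 trained libraries lay below all those labelled WT, for Cx3cr1 7 of 8, for P2ry13 5 of 8 and for Gpr34 2 of 8. Tmem119 went the other way, from 9.94 ± 0.912 to 10.99 ± 0.608 FPKM (SD, n = 8 each), and rose by 0.14 (SE 0.0433, limma adjusted p = 0.0293).
Tyrobp and Csf1r differed by 0.09 and -0.08 and did not pass (limma adjusted p = 0.317 and 0.213). The call of Tmem119 was lost without WT_untrained female replicate 1 or 3, KO_trained female replicate 3 or 4, or KO_trained male replicate 2 (limma adjusted p = 0.0501 to 0.0629), and with an equal sum per library, with all 24 libraries in one fit or with no sex covariate. That of P2ry13 was lost without KO_trained female replicate 1 (limma adjusted p = 0.0504). Within males alone only Trem2 of the 9 was called, where 183 of 12572 tested genes were called, and within females alone Trem2, P2ry12, P2ry13, Siglech and Gpr34, where 3232 of 12572 were called.
Cask, overlapping Gpr34, also fell (change -0.18, limma adjusted p = 0.00406).

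The 9 genes differ in base composition, and part of their differences moved with a correction for it. Gpr34 had the lowest GC content of the 9, at 36.8%, followed by P2ry12 at 40.6% and P2ry13 at 44.7%, and Tmem119 the highest at 60.8%, while the median of the tested genes was 50.9%. After correction for GC content and length, the fall of Trem2 with the genotype label was as before (change -0.44, limma adjusted p = 0.0023), and so was the call of Gpr34 with training (change -0.23, limma adjusted p = 0.0166).
For trained libraries labelled KO against those labelled WT, 5 of the 9 genes were called after correction, beside 1717 of 12572 tested genes called lower and 1747 higher. All 5 were lower: Trem2 (-0.52), Siglech (-0.31), Gpr34 (-0.28), P2ry12 (-0.23) and Cx3cr1 (-0.21). P2ry13 (-0.24, limma adjusted p = 0.0513) and Tmem119 (0.14, limma adjusted p = 0.131) no longer passed.

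**Figure D5:**
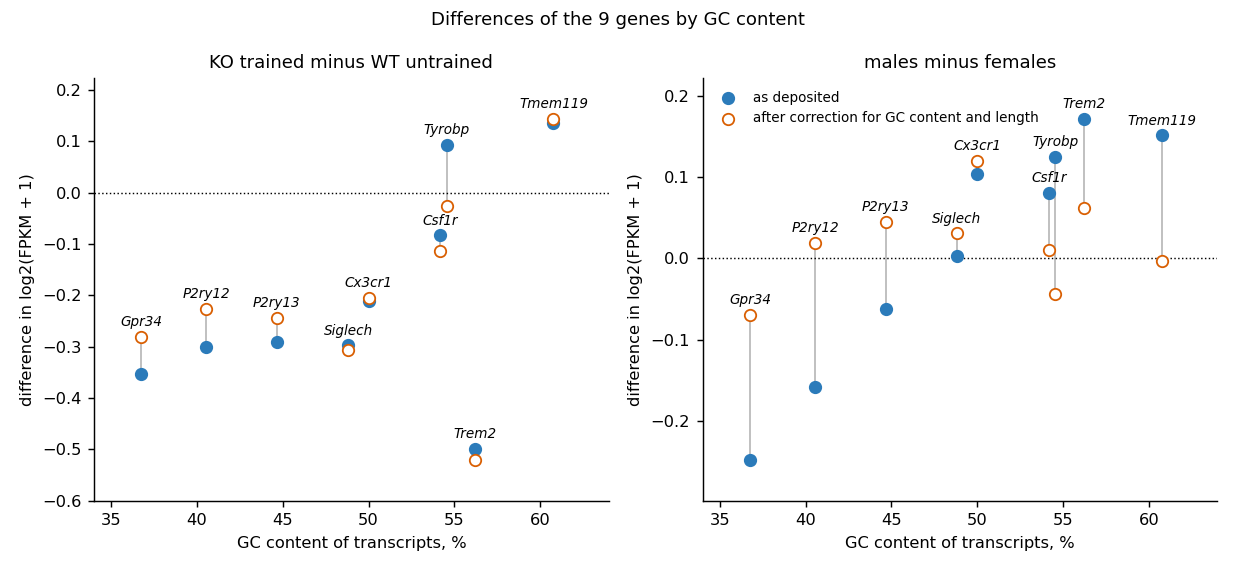
Difference in log2(FPKM + 1) (vertical axes) of the 9 genes against the GC content of their transcripts in percent (horizontal axes), for trained KO minus untrained WT labels (left) and for males minus females (right); filled points are as deposited, open points after correction for GC content and length. In the right panel the differences run from Gpr34 at 36.8% (-0.25) to Trem2 at 56.2% (0.17) and Tmem119 at 60.8% (0.15), and after the correction from -0.07 for Gpr34 to 0.12 for Cx3cr1.

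Between the sexes, in a fit of all 3 arms together, Trem2 and Tmem119 were higher in males and P2ry12 and Gpr34 lower, but none of the 4 passed after the correction for GC content and length. As deposited, 14.8% of tested genes were called higher in males and 13.8% lower (1857 and 1738; 972 and 2600 at an equal sum per library). Gpr34, which is X-linked, differed by -0.25 (SE 0.0662, limma adjusted p = 0.00772), P2ry12 by -0.16 (limma adjusted p = 0.043), Tmem119 by 0.15 (limma adjusted p = 0.0102) and Trem2 by 0.17 (limma adjusted p = 0.0267).
After the correction the values were -0.07, 0.02, -0.0027 and 0.06 (limma adjusted p = 0.505, 0.872, 0.985 and 0.542), and the genes called fell from 3595 to 831. The call of Trem2 was also lost without WT_untrained female replicate 4, WT_untrained male replicate 4 or KO_untrained female replicate 2 (limma adjusted p = 0.0513 to 0.0524). That of P2ry12 was lost without any 1 of 14 libraries: WT_untrained female replicates 2 and 3 and male replicates 1, 2 and 4, KO_untrained female replicates 1 to 4 and male replicates 1 to 3, KO_trained female replicate 2 and KO_trained male replicate 3 (limma adjusted p = 0.0513 to 0.0803). At an equal sum per library neither Trem2 nor Tmem119 passed, nor did Trem2 in limma-voom on recovered reads (limma adjusted p = 0.061) or P2ry12 with no filter on low values (limma adjusted p = 0.0519). Tyrobp was called without WT_untrained male replicate 1 (limma adjusted p = 0.0269), and Csf1r without KO_trained male replicate 3 or with array weights (limma adjusted p = 0.0261 and 0.0356).
Within the trained arm alone 0 of the 9 genes were called by sex (7 genes in all). Within each untrained arm 1 of 9 was called, beside 1820 (labelled WT) and 1176 (labelled KO) of 12572 tested genes.

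Other microglial genes gave a mixed picture. Counts of called genes in the lists below stand beside the shares of all tested genes called higher and lower. These were 0.605% and 0.819% with the genotype label and 3.50% and 2.17% with training. For both labels they were 12.9% and 11.5%, and by sex 14.8% and 13.8%. All 26 further identity genes of a list were in the table and 23 were tested. With the genotype label 0 of 23 were called, 16 differences were negative and the median was -0.07 against -0.0014 over all tested genes. Sparc, a matrix protein gene that endothelium and astrocytes also express, was at 71.0 ± 8.74 FPKM in the libraries labelled WT and 79.4 ± 31.3 FPKM in the untrained libraries labelled KO (SD, n = 8 each). With training 2 of 23 fell, Cd33, a sialic acid-binding receptor gene (change -0.45, limma adjusted p = 0.0106), and Mef2a, a transcription factor gene that neurons also express (change -0.20, limma adjusted p = 0.0423).
In trained libraries labelled KO against those labelled WT 6 fell, among them Cd33 (-0.42), Hpgds (-0.29), the integrin gene Itgam (-0.28), Bin2 (-0.27) and Mef2a (-0.25), and 2 rose, the Fc receptor gene Fcgr3 (0.33) and Rgs10 (0.15). By sex 4 of 23 were higher in males, Laptm5 (0.26), Selplg (0.25), Fcer1g (0.35) and Olfml3 (0.20), and 1 of 23 was lower. Of all tested genes 14.8% were called higher in males and 13.8% lower. The summed level of the 26 genes lay between 306.0 and 355 FPKM in the libraries labelled WT, 291 and 434 FPKM in the untrained libraries labelled KO and 304 and 345 FPKM in the trained ones.

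Transcription factors of microglia, 7 of 10 tested, gave 0 calls with the genotype label or training. Spi1, which encodes PU.1, was at 1.44 ± 0.217, 1.39 ± 0.323 and 1.66 ± 0.383 FPKM (SD, n = 8 each) across the WT, untrained KO and trained KO labels. Mef2c, also abundant in cortical neurons, fell in trained libraries labelled KO against those labelled WT (change -0.20, limma adjusted p = 0.0097).
Of 6 genes for ligands of these receptors, 0 were called with the genotype label. With training 1 of 6 was called: Cx3cl1, the ligand of CX3CR1, rose from 251 ± 37.6 to 314 ± 14.2 FPKM (SD, n = 8 each; change 0.33, limma adjusted p = 0.0189), while Cx3cr1 itself was at 12.9 ± 1.14 and 12.2 ± 1.12 FPKM. Against the libraries labelled WT, trained libraries labelled KO had more Cx3cl1 (0.29) and Clu (0.16) and less Csf1 (-0.17), a ligand of CSF1R. Its other ligand gene, Il34, did not pass (0.08, limma adjusted p = 0.368), nor did Apoe, a TREM2 ligand (0.06, limma adjusted p = 0.548).
Of the genes downstream of TREM2 and TYROBP, 13 of 20 were tested and 0 were called with the genotype label or training. The most abundant were Ptk2b (131 ± 12.0 FPKM, SD, n = 8, in the libraries labelled WT) and Grb2 (55.1 ± 1.88 FPKM, SD, n = 8), both also expressed by other brain cells. In trained libraries labelled KO against those labelled WT the adaptor gene Sh2b3 (0.19) and Pik3cd (0.14) rose and the phosphatase gene Inpp5d fell (-0.20). By sex Vav3 (-0.16) and Cbl (-0.27) were lower and Ptk2b higher (0.17) in males, beside 13.8% of all tested genes lower and 14.8% higher.
Of genes that reactive, disease-associated microglia raise, 12 of 20 were tested. With the genotype label 1 was called, B2m, on chromosome 2 with Thbs1, which fell (change -0.42, limma adjusted p = 0.0023), and with training 0. In trained libraries labelled KO against those labelled WT Fth1 (0.25), Cd63 (0.22) and Ctsd (0.12) rose, and B2m (-0.32) and Csf2ra (-0.24) fell.

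The markers of other cells that could carry some of these genes were examined in the same comparisons. Of 12 markers of border macrophages 7 were in the table, 5 of them under 1 FPKM, and their summed level was 6.53 to 8.52, 7.01 to 13.2 and 7.29 to 10.6 FPKM in the libraries labelled WT, untrained KO and trained KO. Of 15 blood cell markers 1 was in the table, at 0 to 2.69 FPKM. With the genotype label 0 of 10 astrocyte, 0 of 10 oligodendrocyte, 0 of 10 neuronal and 0 of 10 vascular markers were called, with medians of 0.06, -0.15, 0.01 and -0.08. With training, 1 vascular marker rose (Ly6c1, 0.49) and 1 fell (Pdgfrb, -0.28), and 0 of the other 3 lists were called. The medians with training were -0.10 for astrocytes, 0.23 for oligodendrocytes (9 of 10 positive), -0.04 for neurons and 0.02 for vascular cells. In trained libraries labelled KO against those labelled WT 2 astrocyte markers rose and 2 fell, 1 oligodendrocyte marker rose and 1 fell, 2 neuronal markers rose and 1 fell, and 1 vascular marker rose and 2 fell, beside 12.9% of all tested genes higher and 11.5% lower. The medians of these 4 lists there were 0.02, 0.11, 0.04 and -0.09.
Of the 9 tested striatal and septal markers 0 were called with the genotype label, training, both labels or sex. Their median was -0.22 with the genotype label, -0.14 with training (9 of 9 negative), -0.42 for both labels and 0.23 between males and females (9 of 9 higher in males). The cortical markers had a median of -0.17 with the genotype label (10 of 10 negative, 0 called), 0.16 with training (0 called), 0.03 for both labels (3 rose and 2 fell) and -0.05 by sex (9 of 10 lower in males, 0 called). The medians with the genotype label and with training include male replicate 3 of the untrained libraries labelled KO, which stood apart. Its cortical markers averaged 3.43, against 4.98 to 5.11 in the other 7 libraries of its arm. Its oligodendrocyte markers averaged 5.32, against 5.99 to 6.18. How far these medians rest on that 1 library was not tested. The part of other cells and of region in the differences above was not tested.

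Across the 24 libraries, after the mean of each arm and sex was taken off, the 9 genes varied together to unequal degrees. The 36 pairs had a median Pearson correlation of 0.28 (from -0.18 to 0.79), as a description over libraries that also share depth and base composition. The highest was that of P2ry12 with Gpr34 (0.79), the 2 genes of lowest GC content, and P2ry12 also went with Siglech (0.62) and Cx3cr1 (0.62). Trem2 was most like Tyrobp among the 9 (0.43), but over all tested genes Smim19 (0.79), 2010012O05Rik (0.74), Gm765 (0.73), Kctd15 (0.73) and Tacc3 (0.73) were closer.
For P2ry12 the closest were Pcdhga6 (0.85), Gpr34 (0.79), Taf4b (0.75), Ankrd28 (0.74) and Manea (0.73). For the mean of the 9 genes they were Bin2 (0.73), a microglial gene, Slc2a5 (0.73), the microglial fructose transporter, Manea (0.72), Wbp1 (0.71) and Neu3 (0.70).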

How the data were processed

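Poly(A) RNA of 24 mice was sequenced from stranded libraries, per the labels' protocols. The submitters' processing notes name FastQC 0.11.7, Trimmomatic 0.38, STAR 2.5.3a, featureCounts, Subread 1.6.3 and mm10, while the annotation, strand setting and gene filter are not given in the sources used here. The deposited values are FPKM computed by the authors, although the header calls them counts.

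From FPKM, whole reads were recovered for 15230 genes (99.99% of values within 0.01 read). Log2(FPKM + 1), which understates changes of low genes, went into limma 3.58.1 (R 4.3.3, trended eBayes), with sex as a covariate and only the compared arms; sex was fitted over all arms. GC content (GENCODE M21) covered 96.4% of tested genes, in 20 bins. Single ratios were tested by exact permutation, with all arrangements enumerated in Python 3.11.15 and numpy 2.4.6. Animals are separate per the labels, by their numbers.

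Named are the 9 genes, Thbs1, Thbs2, called list genes (at most 6 per list; for cell types other than microglia as counts), the 2 most abundant per microglial list, called neighbours of Trem2 and the 5 most alike genes; some genes the rule gives are not reported here and stay in the counts. The genes, lists and tests were chosen with earlier results of these data known. Alternatives covered pseudocount, filters, scaling, covariates, array weights, limma-voom, each library left out and the replicate block; single-sex and single-arm fits were chosen after seeing the data.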

Additional observations from a re-analysis of the deposited data

Results flagged for a closer look

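Tyrobp in male replicate 4 of the untrained libraries labelled KO was at 23.5 FPKM, far above the other 7 libraries of its arm (gap 0.581 of the range). Siglech in female replicate 1 of the trained libraries was at 3.99 FPKM, far below the other 7 (gap 0.583 of the range). In all, 33 groups of 8 libraries were checked, of which chance would flag about 1.65.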

How the results depend on the processing

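With 1 library left out, members called ranged from 1 to 2 for the genotype label, 0 to 1 for training, 6 to 7 for both labels and 2 to 4 for sex. Genes called ranged from 115 (without WT_untrained female replicate 3) to 340 (without KO_untrained male replicate 3), from 330 to 945, from 2363 to 3418 and from 2986 to 4233, and the ratios of Trem2 that passed from 4 to 7 and from 0 to 2. For the genotype label the members called were 2 with array weights and 0 in males alone, and the genes called were 98 with no sex covariate, 297 with array weights, 79 in females and 17 in males alone. For training the members called were 0 with a mean FPKM of at least 5 (where Gpr34 is not tested), quantile normalization, no sex covariate, animal number over 1000 as a covariate or males alone, 2 with array weights and 4 in females alone. The genes called were 1238 with all 24 libraries in one fit, 422 with no sex covariate, 2020 with array weights, 0 with the animal number or in males alone, and 1974 in females alone. For both labels 1 member and 183 genes were called in males alone. For sex the members called were 2 at an equal sum (3572 genes) and 0 after GC and length correction (831 genes). They were 1 in the WT_untrained arm (1820 genes), 1 in the KO_untrained arm (1176 genes) and 0 in the KO_trained arm (7 genes). In animals with numbers under 1000, 2 members were called by sex, beside 2978 of 12572 tested genes. The sex difference of P2ry12 became 0.0189 after the correction and 0.0244 in the KO_trained arm, and that of Tmem119 -0.0027. The cause was not tested for any of these. Of the 8 ratios of Trem2, 8 passed with labels exchanged within sex. Limma-voom on recovered reads called 175, 761, 3130 and 3479 genes and 1, 1, 7 and 3 members.

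Same-numbered animals did not deviate together on average (mean correlations 0.02, -0.07 and -0.10, over 8, 7 and 7 pairs). For the genotype label single pairs ran from -0.29 to 0.36. So few pairs cannot exclude a pairing, and the main fits used none. With the replicate block the members called were 1, 0 and 3 and the genes called 114, 29 and 1614 for the genotype label, training and both labels. Gpr34 was then not called with training (limma adjusted p = 0.212). For both labels Trem2, Cx3cr1 and Siglech were called, and P2ry12, P2ry13, Gpr34 and Tmem119 were not (limma adjusted p = 0.0529, 0.0568, 0.0799 and 0.096). Depth limits Trem2, Gpr34 and P2ry13 most, at as few as 81, 96 and 98 reads.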
